A study of Mus musculus with 5 samples.

Results

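The genes examined here were 40 cell cycle and mitosis genes that mark cycling cells, chosen by name because the cells had been expanded in vivo: cyclins, cyclin-dependent kinases, replication factors, cell cycle transcription factors, mitotic genes and kinase inhibitors. RNA polymerase II (Pol II) on these genes was measured by CUT&Tag, in which an antibody on chromatin directs a transposase to cut the DNA around the bound protein. Counts of each gene were summed over merged Pol II peaks whose midpoint lay in the gene body or within 3 kb upstream of it (mouse genome mm10). Of the 40 genes, 39 had at least 1 peak, out of 12876 genes with a peak, and together they held 165 of 56615 peaks.

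The nuclei came from splenic regulatory T (Treg) cells, sorted as CD3+CD4+ Foxp3-YFP+ cells from 8-week-old C57BL/6 mice of both sexes pooled. To expand Treg cells, all mice had been injected for 3 days with IL-2c (1 μg of IL-2 bound to 5 μg of the antibody JES6-1) and were killed 48 hours later. The control (Ctrl) mice were Foxp3CreSetd2flox/+, with Cre under the Foxp3 promoter and 1 floxed allele of Setd2, which encodes the histone H3K36 methyltransferase, and the knockout (KO) mice were Foxp3CreSetd2flox/flox. Cre-YFP and at least 1 deletable allele were therefore shared by both groups, and Ctrl was not wild type. There were 2 Ctrl and 2 KO libraries. The methods of the study describe Treg cells of 2 littermate mice pooled for the sort and count the nuclei of 1 library as a biological replicate, without saying whether each library had a pool of its own. With a shared pool, the p-values below would measure only technical spread.

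Total counts ranged from 4489646 to 13351007 per library, the library numbered 1 being the deeper in both groups. Pol II over Setd2 did not distinguish the groups, its normalised counts being 525 and 513 in the Ctrl and 458 and 560 in the KO libraries (log2 fold change -0.04 ± 0.19), and the table does not show the deleted exon alone. All 5 T cell and all 5 Treg markers had peaks, whereas neither Cd8a nor Cd8b1 did. The summed B cell markers Cd79a and Cd79b reached 89.1 to 136 normalised counts. The myeloid markers (2 of 5 with a peak) summed to 472 to 564, and the erythroid markers Klf1 and Epor to 221 to 254. The T cell markers summed to 13130 to 13570, of which Cd5 alone gave 8448 to 8732. Single markers lay closer together. The myeloid Spi1 had 411 to 462 and Klf1 186 to 225, against 497 to 569 for Cd3e and 183 to 225 for the Treg marker Tnfrsf18. The sums were not divided by peak length and do not measure the purity of the sort. Ms4a1, Pax5, Lyz2, Csf1r, Itgam and Hba-a1 had no peak.

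The cell cycle is driven by cyclin-dependent kinases, each switched on by a cyclin, and many cyclins are made only in part of the cycle. Cyclins D and E with Cdk4, Cdk6 and Cdk2 inactivate the pocket protein Rb1 and release E2F factors, which turn on the genes of DNA replication. Later, cyclin B with Cdk1 and the factor Foxm1 carry the cell into mitosis, where kinases and motors such as Plk1, the Aurora kinases and Kif11 separate the chromosomes. T cells held in quiescence express few of the replication and mitotic genes, and IL-2 is a main signal for Treg cells to divide.

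The promoters of the mitotic genes and those of the replication and deoxynucleotide genes differed in their sequence motifs. RefSeq promoter sequences (GRCm38.p6, from 250 bases before to 50 bases after the start site) were matched for 33 of the 40 genes, with 38 promoters in all, of which 36 overlapped a Pol II peak. Aurkb, Ccna2, Ccnd2, Ccne2, Foxm1, Mcm4 and Rb1 were not matched. Motifs were searched on both strands: the E2F core, as TTGGCGC or TTGCCGC or TTCGCGC or TTCCCGC; the CHR element of G2/M genes, as TTTGAA or TTCGAA; and CCAAT, the box bound by NF-Y. The CHR element was found in 8 of the 9 mitotic promoters (88.9%), all but Birc5, and in 2 of the 11 promoters of replication and deoxynucleotide genes (18.2%). The E2F core had the opposite pattern, with 8 of those 11 (72.7%) and 1 of the 9 mitotic promoters (11.1%), that of Mki67. Over all promoters of genes with a promoter peak the shares were 13.9% for CHR and 16.5% for E2F, and 19.2% and 9.57% over all 32851 promoters listed. The other roles showed no such split. The E2F core and the CHR element were each found in 1 of 5 cyclin promoters, the E2F core in Ccnb1 and the CHR element in Ccnb2. Of 5 kinase and phosphatase promoters 3 had an E2F core and 1, that of Cdk1, had both. Of 5 inhibitor promoters 1 had an E2F core and 0 a CHR element.

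CCAAT was present in 27 of the 38 promoters (71.1%), against 37.8% of promoters of genes with a promoter peak and 37.4% of all promoters. It was frequent in both the mitotic (8 of 9) and the licensing and fork promoters (7 of 8), and 3 CCAAT matches overlapped an E2F match. None of the motif letters was found in Cdk4, Cdk6, Ccne1, E2f1, Cdkn1a, Birc5 or Tyms. A match describes the letters only and says nothing of binding in these cells.

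The 6 promoters printed here show these classes, with motif letters in capitals and the start site at base 251 of each window. Mcm5 and Cdc6 stand for the E2F class of replication genes, Top2a and Bub1b for the CHR class of mitotic genes, Mki67 carries all 3 motifs, and Cdkn1b has CCAAT alone.
Mcm5, chr8:75109259-75109558, plus strand: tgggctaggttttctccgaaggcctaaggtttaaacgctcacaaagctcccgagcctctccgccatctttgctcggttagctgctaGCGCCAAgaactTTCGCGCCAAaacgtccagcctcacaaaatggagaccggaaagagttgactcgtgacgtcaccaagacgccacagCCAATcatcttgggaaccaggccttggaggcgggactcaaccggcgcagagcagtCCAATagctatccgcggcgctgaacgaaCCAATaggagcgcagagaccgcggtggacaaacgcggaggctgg
Cdc6, chr11:98907901-98908200, plus strand: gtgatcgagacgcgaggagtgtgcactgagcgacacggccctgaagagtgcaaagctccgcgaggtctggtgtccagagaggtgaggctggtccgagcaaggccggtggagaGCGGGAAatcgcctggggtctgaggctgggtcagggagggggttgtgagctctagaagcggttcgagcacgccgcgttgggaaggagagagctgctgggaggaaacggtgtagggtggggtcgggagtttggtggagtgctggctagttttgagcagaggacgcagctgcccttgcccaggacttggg
Top2a, chr11:99024140-99024439, minus strand: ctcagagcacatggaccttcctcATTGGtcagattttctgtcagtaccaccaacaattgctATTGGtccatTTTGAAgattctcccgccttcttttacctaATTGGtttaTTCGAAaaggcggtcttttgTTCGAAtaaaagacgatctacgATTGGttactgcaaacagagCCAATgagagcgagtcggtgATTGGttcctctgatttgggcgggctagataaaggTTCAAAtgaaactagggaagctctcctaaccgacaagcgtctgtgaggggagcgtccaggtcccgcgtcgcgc
Bub1b, chr2:118597961-118598260, plus strand: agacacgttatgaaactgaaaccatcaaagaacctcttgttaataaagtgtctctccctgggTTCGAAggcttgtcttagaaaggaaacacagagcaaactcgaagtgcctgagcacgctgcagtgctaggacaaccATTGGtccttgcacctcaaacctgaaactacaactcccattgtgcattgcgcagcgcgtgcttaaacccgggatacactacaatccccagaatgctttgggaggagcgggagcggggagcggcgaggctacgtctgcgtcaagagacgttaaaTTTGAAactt
Mki67, chr7:135716330-135716629, minus strand: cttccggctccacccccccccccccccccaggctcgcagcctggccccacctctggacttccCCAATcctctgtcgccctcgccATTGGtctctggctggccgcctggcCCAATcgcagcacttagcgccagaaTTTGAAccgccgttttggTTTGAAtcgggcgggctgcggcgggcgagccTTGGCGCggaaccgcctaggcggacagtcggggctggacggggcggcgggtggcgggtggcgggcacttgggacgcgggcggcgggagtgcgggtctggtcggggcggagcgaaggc
Cdkn1b, chr6:134920151-134920450, plus strand: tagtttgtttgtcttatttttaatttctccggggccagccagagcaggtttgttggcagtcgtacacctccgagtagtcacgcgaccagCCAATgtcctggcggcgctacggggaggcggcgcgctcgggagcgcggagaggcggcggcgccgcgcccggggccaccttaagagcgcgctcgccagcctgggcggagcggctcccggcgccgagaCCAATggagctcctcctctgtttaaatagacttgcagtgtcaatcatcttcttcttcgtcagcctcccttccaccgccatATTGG
In Mcm5, 3 E2F matches began 164, 152 and 149 bases upstream of the start, followed by 3 CCAAT boxes. The E2F matches at 152 and 149 overlapped in 1 stretch. Cdc6 had 1 E2F match and none of the other motifs. Top2a had the most matches of the 6, with 6 CCAAT boxes and 4 CHR elements, and Mki67 had 2 CHR elements, 3 CCAAT boxes and 1 E2F core.

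Pol II was found at the promoters of all genes but one. Each of the 39 genes with a peak had a promoter peak, that is, one whose midpoint lay within 3 kb of an annotated start site of the gene, and 88 of the 165 peaks were of this kind. The exception was Tyms, the thymidylate synthase gene (chr5:30058202-30073617), which had no peak in its body or within 3 kb upstream. Its absence from the table says only that no peak was called there. Of the peaks away from promoters, 69 lay in introns and 8 in exons, and 16 genes (41.0%) had at least 1 of them, against 44.8% of all genes with a peak.

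In all, 10 genes shared a peak with a neighbouring or overlapping protein-coding gene. Since reads carry no strand, that signal cannot be credited to either gene. Sharing with non-coding genes was not counted. The pairs were Mcm4 with Prkdc, Aurka with Cstf1, Foxm1 with Rhno1, Ccnd3 with Taf8, Cdk2 with Pmel, Cdk4 with March9, Mcm7 with Ap4m1, Pcna with Tmem230, E2f1 with Necab3, and Rb1 with Lpar6 and Rcbtb2. For Aurka, Foxm1 and Cdk2 every peak was shared.

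Promoter Pol II of the cell cycle genes lay in the middle of the range of all genes. Expressed as the mean normalised count per kb over all promoter peaks of a gene, the median was 158 over the 39 genes and 155.5 over 11951 genes with a promoter peak. This average includes low peaks near secondary start sites, so the densest promoter peak of each gene was also read, with medians of 200.5 and 185. It exceeded the average by over 1.5 times in 4 genes, E2f1, Cdkn1a, Mcm7 and E2f2. The spread of the averages was wide, from 71.1 for Bub1 (percentile 1.46 of all genes) to 522.5 for Mcm4 (percentile 99.4).

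**Figure D1:**
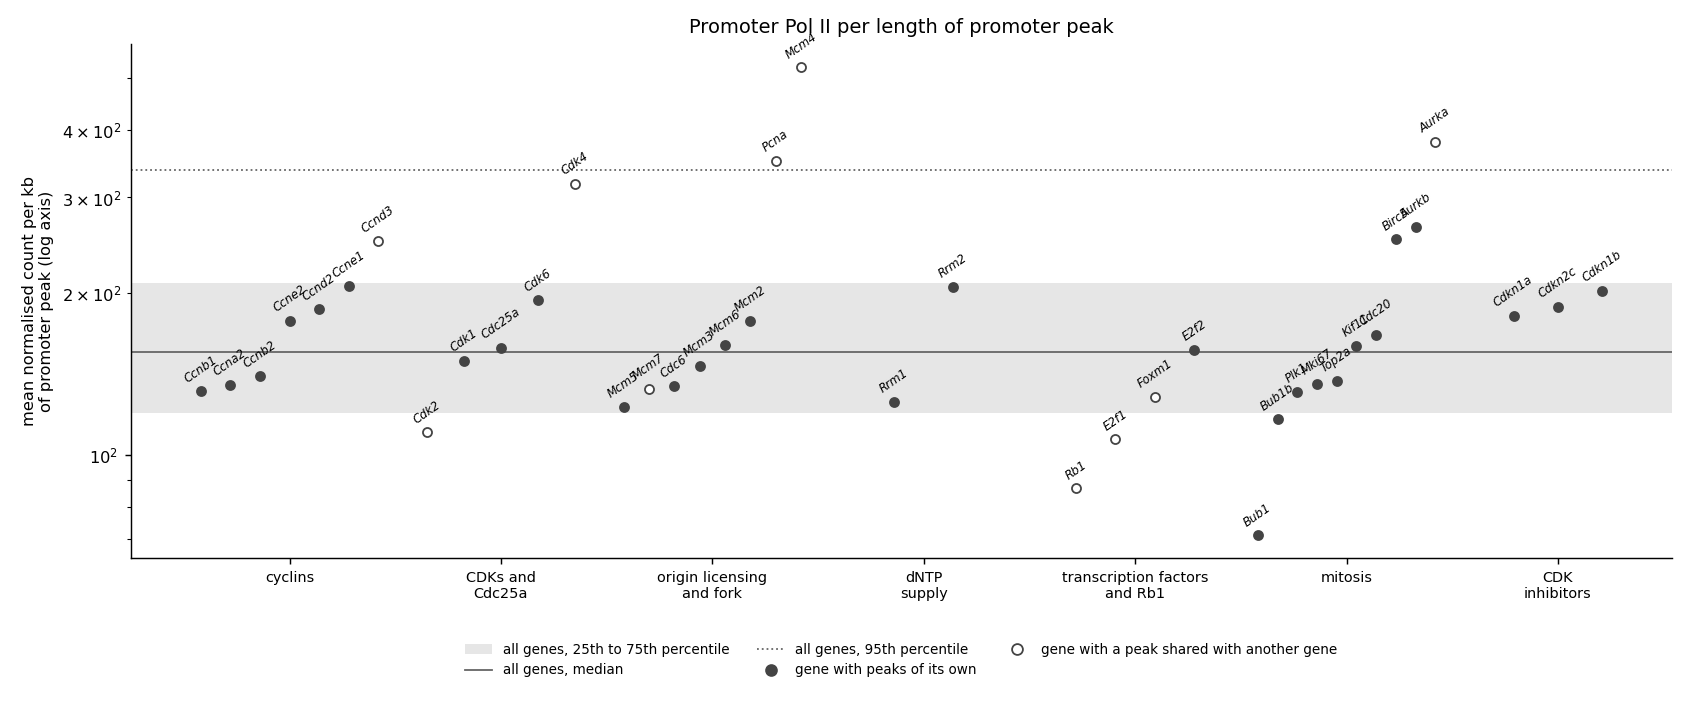
Promoter Pol II of the 39 genes by role, as the mean normalised count of the 4 libraries per kb over all promoter peaks of a gene (log axis). Each point is a gene, open where it shares a peak with another protein-coding gene. The grey band, line and dotted line give the 25th to 75th, 50th and 95th percentiles of all genes. Mcm4, Aurka and Pcna lie above the 95th percentile, and Bub1 and Rb1 at the bottom.

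Among the replication genes, the helicase subunits Mcm2 to Mcm7 load at origins with the help of Cdc6, and Pcna is the sliding clamp of the replicative polymerases. Mcm4 gave 485 and 530 counts per kb of promoter peak in the Ctrl libraries and 500 and 575 in KO, all from 1 peak over the start it shares with Prkdc, the catalytic subunit of DNA-dependent protein kinase. Pcna followed with 356 and 352 in Ctrl, compared with 381 and 316 in KO. Most of the Pcna signal came from 1 peak over the gene, chr2:132250883-132253524, that belonged to no other protein-coding gene and held 372 counts per kb. The other Mcm genes and Cdc6 were far lower, from 123 for Mcm5 to 177 for Mcm2 (123 to 217 at the densest peak), although the 6 Mcm proteins form 1 complex. Rrm2, the regulated subunit of ribonucleotide reductase, had 205 counts per kb and Rrm1, its partner, 126.

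Cyclin promoters differed in Pol II density, described here with no test. Ccnd3, Ccne1, Ccnd2 and Ccne2 lay at 249, 205.5, 186 and 177 counts per kb, and Ccnb2, Ccna2 and Ccnb1 at 140.1, 135 and 131. At the densest peak this order did not hold throughout, since Ccnb2 (200.5) passed Ccne2 (191.5). Cdk4 (318) and Cdk6 (194), the partners of cyclin D, were above Cdk1 (149.6) and Cdk2 (110.3), the Cdk2 peak being shared with Pmel. The kinase inhibitors were also above the median of all genes, with Cdkn1b (p27) at 202, Cdkn2c (p18) at 188 and Cdkn1a (p21) at 181.

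Of the 10 mitotic genes 5 lay below the median of all genes, or 6 by their densest peak, and 3 lay well above it. Aurkb corrects attachment of chromosomes to the spindle, and Birc5 (survivin) is its partner in the chromosomal passenger complex. Both were high, at 264 and 251 counts per kb, from peaks shared with no other protein-coding gene. The Aurkb peaks were narrow, with 134 counts over 0.508 kb. By promoter counts not divided by length, Aurkb was below Mki67 (166), Bub1b (204) and Top2a (207) and above Plk1 (68) and Bub1 (45.0). Aurka reached 381 counts per kb, from peaks shared with Cstf1. The proliferation marker Mki67 (136), topoisomerase Top2a (137), the kinase Plk1 (131) and the checkpoint genes Bub1b (116.5) and Bub1 (71.1) made up the lower group. Bub1 varied most between libraries, at 111 and 50.1 in Ctrl, against 85.4 and 37.7 in KO, the lower value in each pair being the shallower library. Of the transcription factors, E2f2 (157) was near the median, while Foxm1 (128), E2f1 (107.0) and Rb1 (86.8) were below it. E2f1 depended on the measure, its densest peak, at the start, holding 251 counts per kb (percentile 74.6). For Rb1, 154 of the 243 promoter counts came from a peak 87.0 kb inside the gene, shared with Lpar6. Its promoter peaks nearest the gene start held 65.0 to 86.9 counts per kb.

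Among genes with a matched promoter, those with neither an E2F core nor a CHR element had the highest median level. The 7 genes not matched, Mcm4 (522.5 counts per kb) and Aurkb (264) among them, are in no class. The median promoter density was 140.1 counts per kb for the 13 genes with a CHR element and 140.2 for the 10 with an E2F core and no CHR element. It was 205.5 for the 9 with neither (170, 174 and 280.1 at the densest peak, in this order). The 9 were Ccnd3, Ccne1, Cdk4, Cdk6, Pcna, the inhibitors Cdkn1a and Cdkn1b, the mitotic gene Birc5, and E2f1, the lowest at 107.0. These are descriptions with no test, and the ranges of the groups overlapped.

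Ccnd3 and Cdk6 held 62 of the 165 peaks and were the only genes of the list with more than 7. Ccnd3 encodes the D cyclin most used by lymphocytes, and Cdk6 a kinase it activates. Summed counts placed Ccnd3 at percentile 98.9 and Cdk6 at percentile 97.3 of all genes, while their promoter densities were at percentiles 85.5 and 70.2.

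Ccnd3 (chr17:47505051-47599691, plus strand) had 33 peaks along its 94.6 kb. They formed a cluster at the first start site, a series of intronic peaks as far as 79.1 kb, and a second cluster of 5 peaks 87.3 to 93 kb downstream of the first start, around start sites of shorter transcripts. The densest of them, apart from a peak shared with Taf8 upstream, were at 2.65 kb (337 counts per kb), at 26.7 kb in an intron (302.5) and at 88.5 kb (300.1). Peak by peak the KO and Ctrl libraries overlapped at 21 of the 33. Both KO libraries were below both Ctrl libraries at 10 peaks (30.3%, against 16.1% of all peaks) and above them at 2 (6.06%, against 16.2%). The peaks of 1 gene are not independent, and the lowest unadjusted DESeq2 p of the 33 was 0.118.

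Cdk6 (chr5:3341485-3531008, plus strand) had 29 peaks in 190 kb, of which 27 lay away from promoters. Its promoter peak, of 3460 bases, gave 206 counts per kb. Past 150 kb from the start, intronic peaks at 153, 161 and 174 kb reached 187, 181 and 187 counts per kb, nearly the density at the promoter. A peak at 96.3 kb separated the libraries by their number and not by genotype. It had 218.5 and 176.5 counts in the libraries numbered 1 and 404 and 303 in those numbered 2. Peak by peak the KO and Ctrl libraries of Cdk6 overlapped at 24 of the 29. Both KO libraries were below both Ctrl libraries at 4 peaks (13.8%, against 16.1% of all peaks). They were above them at 1 (3.45%, against 16.2%).

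**Figure D2:**
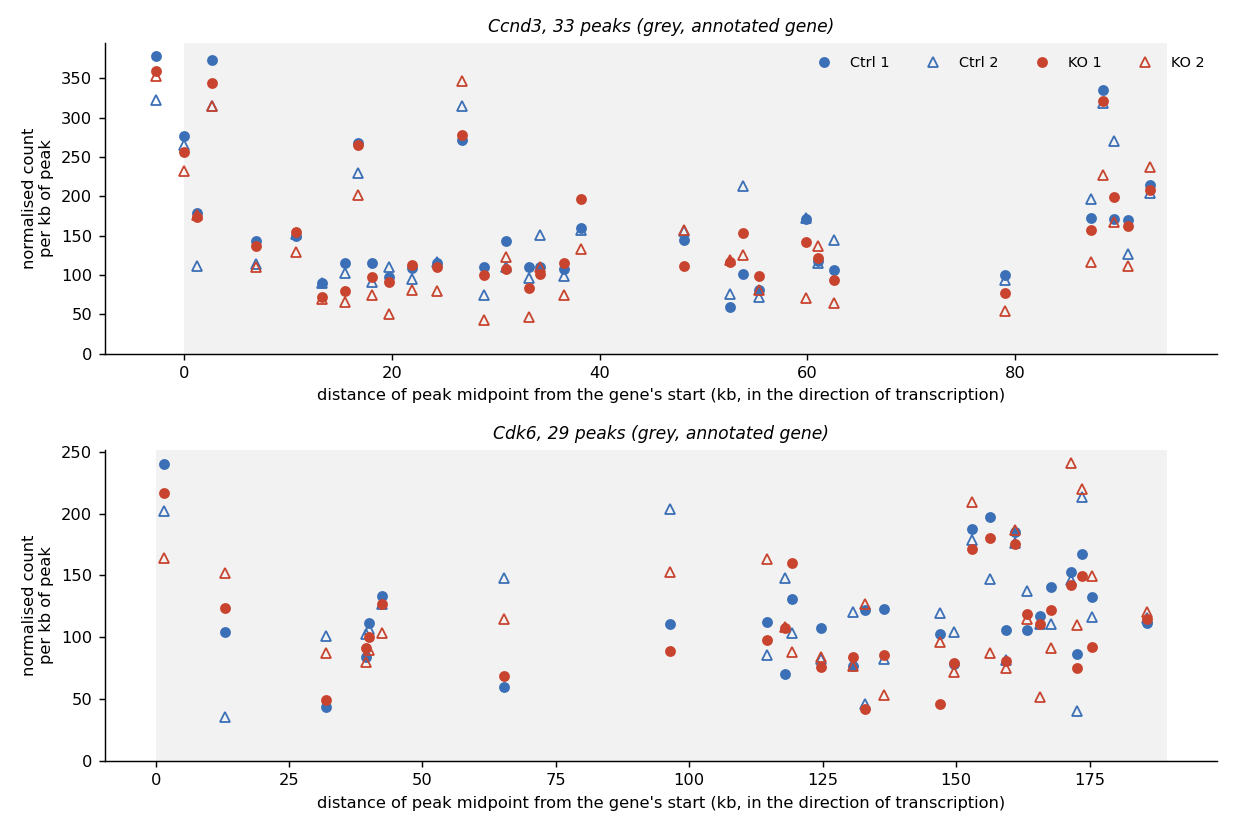
Normalised Pol II count per kb of each peak of Ccnd3 (33 peaks, above) and Cdk6 (29 peaks, below) against the distance of its midpoint from the start of the gene in kb. Points are the 4 libraries, circles for replicate 1 and triangles for replicate 2 of Ctrl (blue) and KO (red). Dense Pol II occurs far inside both genes, near 88.5 kb in Ccnd3 and beyond 150 kb in Cdk6, in all 4 libraries.

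KO was then compared with Ctrl to ask whether Setd2 loss changed Pol II on cell cycle genes relative to other genes. The libraries were scaled to each other by their own counts, so a change shared by all peaks could not be seen. No gene of the list passed the test. Of the 39 genes 0 had an adjusted p below 0.05 in the DESeq2 test over all genes, where 13 of 12876 (0.101%) did. At an unadjusted p below 0.05 the count was also 0 of 39, against 337 genes (2.62%) of all. edgeR's quasi-likelihood test gave 0 by adjusted p (lowest 0.844) and 3 by unadjusted p, Ccne1, Bub1b and Cdkn2c, or 7.69% against 4.89% of all genes. In bulk libraries, a change in the share of cycling cells and a change in Pol II per cell cannot be told apart.

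The estimates were small and went both ways. Higher values in KO were estimated for 21 genes and lower ones for 18, from -0.37 (Bub1) to 0.47 (Foxm1) on the log2 scale, with a median of 0.03 against -0.02 over all genes. The 95% Wald interval lay within a 2-fold change in either direction for 37 of the 39 genes (94.9%), against 83.8% of all genes, the exceptions being Foxm1 and Bub1, both among the 3 genes lowest in counts. Together the 165 peaks took 0.305% and 0.294% of the counts in the Ctrl libraries and 0.311% and 0.295% in KO. That is 0.299% ± 0.0084 in Ctrl and 0.303% ± 0.011 in KO (SD, n = 2), a difference smaller than the spread between replicates. This total joined 2 parts that went opposite ways. The 62 peaks of Ccnd3 and Cdk6 took 0.1126% and 0.1113% in Ctrl, against 0.1087% and 0.1023% in KO. The other 103 peaks took 0.1928% and 0.1822% in Ctrl, against 0.2021% and 0.1924% in KO. Their difference of 0.0098 exceeded the SD of Ctrl (0.0075) and of KO (0.0069), but the libraries overlapped. No test was made of these shares.

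**Figure D3:**
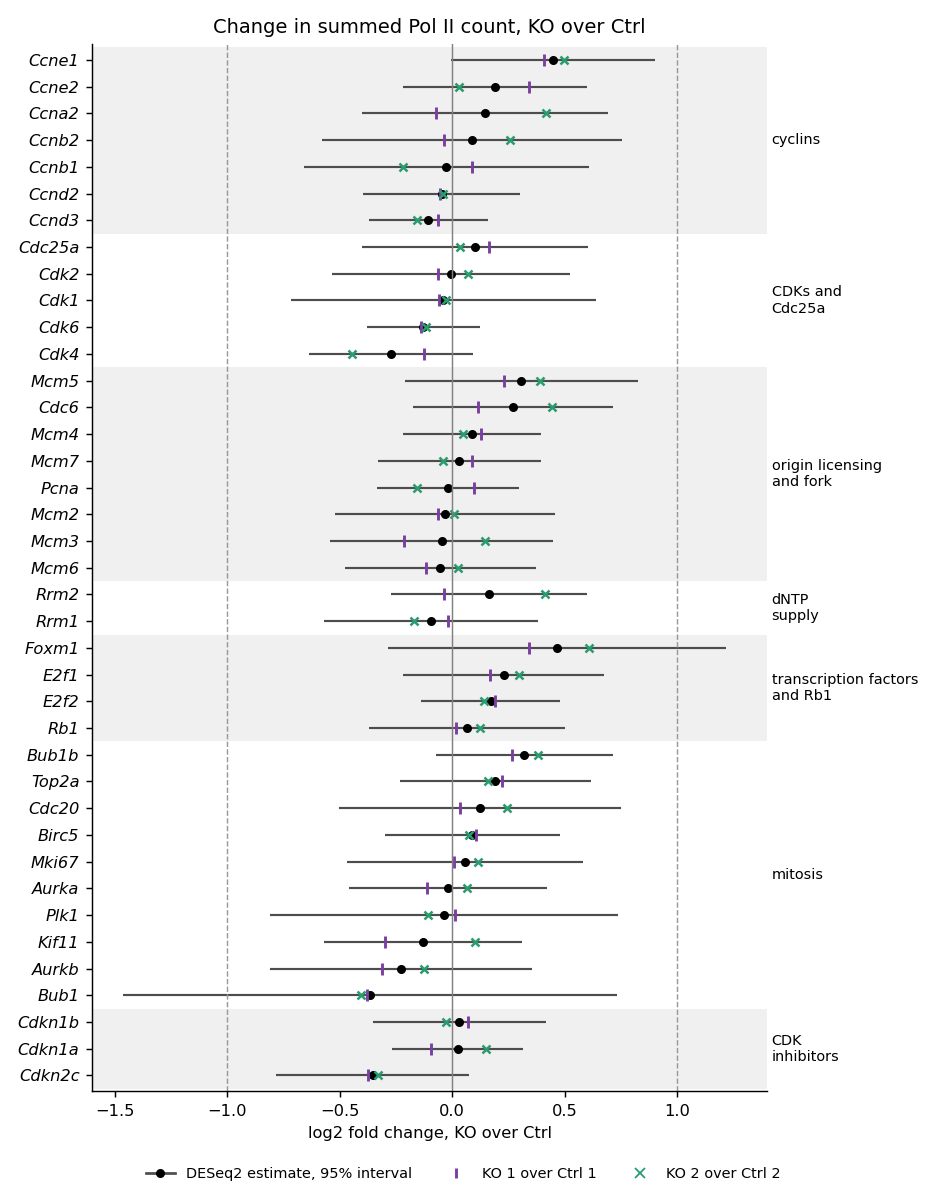
log2 fold change of the summed Pol II count, KO over Ctrl, for the 39 genes by role. Black points and bars are DESeq2 estimates with 95% Wald intervals, purple ticks and green crosses the ratios of the libraries of the same number, and dashed lines mark a 2-fold change. The intervals of all 39 genes include 0, and only those of Foxm1 and Bub1 reach past a dashed line.

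Both KO libraries were above both Ctrl libraries for 10 genes (25.6%, against 15.2% of all genes) and below them for 4 (10.3%, against 19.0%), and the libraries overlapped for the other 25. The 10 were Ccne1, Ccne2, Cdc25a, Mcm5, Cdc6, E2f1, Foxm1, Top2a, Bub1b and Birc5, and the 4 were Cdk4, Cdk6, Aurkb and Cdkn2c. None of the 14 passed the test, and no test was made of these counts.

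Among the cyclins the lowest unadjusted p was that of Ccne1, cyclin E1, which activates Cdk2 at the G1/S transition (chr7:38097984-38107534). Its normalised counts were 244 and 204 in Ctrl, compared with 325.0 and 288 in KO. Both KO libraries were the higher, with a log2 fold change of 0.45 ± 0.23 (SE; 95% interval -0.0038 to 0.90) and an adjusted p of 1.00. Part of it came from 1 low peak over an exon near the start, chr7:38107221-38107449, with 12.2 and 2.76 counts in Ctrl, against 30.9 and 56.2 in KO. The main peak just upstream of the start, chr7:38107742-38108463, had 199 and 158 in Ctrl, compared with 245 and 206 in KO, with the lower KO library next to the higher Ctrl library. Ccne2, the second E cyclin, had 298 and 342 in Ctrl, against 378 and 349 in KO (0.19 ± 0.21).

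The abundant D cyclins gave small estimates. Ccnd3 had 5819 and 5357 counts in Ctrl, compared with 5578 and 4806 in KO (log2 fold change -0.11 ± 0.14). Ccnd2 had 1480 and 1156 in Ctrl, against 1424 and 1124 in KO (-0.05 ± 0.18), and here the libraries fell by their number, not by genotype. The cyclins of S phase and mitosis, Ccna2, Ccnb1 and Ccnb2, had log2 fold changes of 0.15, -0.03 and 0.09, each with overlapping libraries.

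Both D cyclin kinases had lower values in KO than in either Ctrl library. Cdk4 counts were 536 and 574.5 in Ctrl, compared with 491 and 422 in KO, with a log2 fold change of -0.27 ± 0.19. Cdk6 counts were 3349 and 3268 in Ctrl, against 3041 and 3015 in KO (log2 fold change -0.13 ± 0.13). The Cdk6 libraries of each genotype lay close together, but its interval (-0.38 to 0.12) included 0. Cdk1, Cdk2 and the phosphatase Cdc25a, which activates the kinases, lay between -0.04 and 0.10.

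In the licensing and fork group 4 genes were estimated higher and 4 lower, between -0.05 and 0.31. Mcm5 had 155 and 154 counts in Ctrl, compared with 182 and 203 in KO (0.31 ± 0.26). Cdc6, the loader of the helicase, had 255 and 229 in Ctrl, against 276 and 312 in KO (0.27 ± 0.23). In both genes the KO libraries were above the Ctrl libraries, and both intervals included 0. Mcm4, at 934 and 1054 in Ctrl, compared with 1022 and 1092 in KO, and Pcna, at 1067 and 1054 in Ctrl, against 1141 and 947 in KO, had log2 fold changes of 0.09 and -0.02. The other 4 Mcm genes lay between -0.05 and 0.03.

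Of the deoxynucleotide genes, Rrm2 had 354 and 266 counts in Ctrl, compared with 345 and 354 in KO, and Rrm1 had 208.5 and 240 in Ctrl, against 206 and 213 in KO. Ctrl and KO overlapped for both, and the estimates were of opposite sign (0.16 ± 0.22 and -0.09 ± 0.24).

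All 4 transcription factor and pocket protein genes were estimated higher in KO, with none past the test. Foxm1, the activator of G2/M genes, had the largest estimate and few counts, all from peaks shared with Rhno1, 63.2 and 57.9 in Ctrl, compared with 80.2 and 88.6 in KO (0.47 ± 0.38). E2f2, an activator of S phase genes, had 1339 and 1178 in Ctrl, against 1530 and 1301 in KO (0.17 ± 0.16), with the lower KO library below the higher Ctrl library. E2f1, also an S phase activator, had both KO libraries (264 and 278) above both Ctrl libraries (234 and 226), at 0.23 ± 0.23. Rb1 had 375 and 292 in Ctrl, compared with 380 and 318.5 in KO (0.07 ± 0.22).

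Among mitotic genes 5 were estimated higher and 5 lower. Bub1b, which encodes the spindle checkpoint protein BubR1, had 326 and 328 counts in Ctrl, against 392 and 427.5 in KO (0.32 ± 0.20). Top2a had 262 and 273 in Ctrl, compared with 305 and 305 in KO (0.19 ± 0.22). In both genes the Ctrl libraries nearly coincided and both KO libraries were above them. Mki67, the proliferation marker, gave 170 and 156 in Ctrl, against 170.5 and 169 in KO (log2 fold change 0.06 ± 0.27). Aurkb had 139 and 149 in Ctrl, compared with 112 and 136 in KO (-0.23 ± 0.30). The remaining mitotic genes overlapped between genotypes or, for Birc5, were separated by a small margin (0.09 ± 0.20). Among them, Kif11, the motor that pushes spindle poles apart, had 574 and 379 in Ctrl, against 466 and 407 in KO, and Aurka had 394 and 496 in Ctrl, compared with 364 and 519.5 in KO.

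The kinase inhibitors showed 1 low estimate. Cdkn2c, which inhibits Cdk4 and Cdk6, had 335 and 309 counts in Ctrl, against 258 and 245 in KO (-0.35 ± 0.22; 95% interval -0.78 to 0.08). Cdkn1a had 1330 and 1247 in Ctrl, compared with 1246 and 1383 in KO, and Cdkn1b had 1496 and 1116 in Ctrl, against 1571 and 1095 in KO. Ctrl and KO overlapped in both, and the estimates were 0.02 ± 0.15 and 0.03 ± 0.20. In Cdkn1b the difference between libraries of 1 genotype exceeded that between genotypes.

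**Figure D4:**
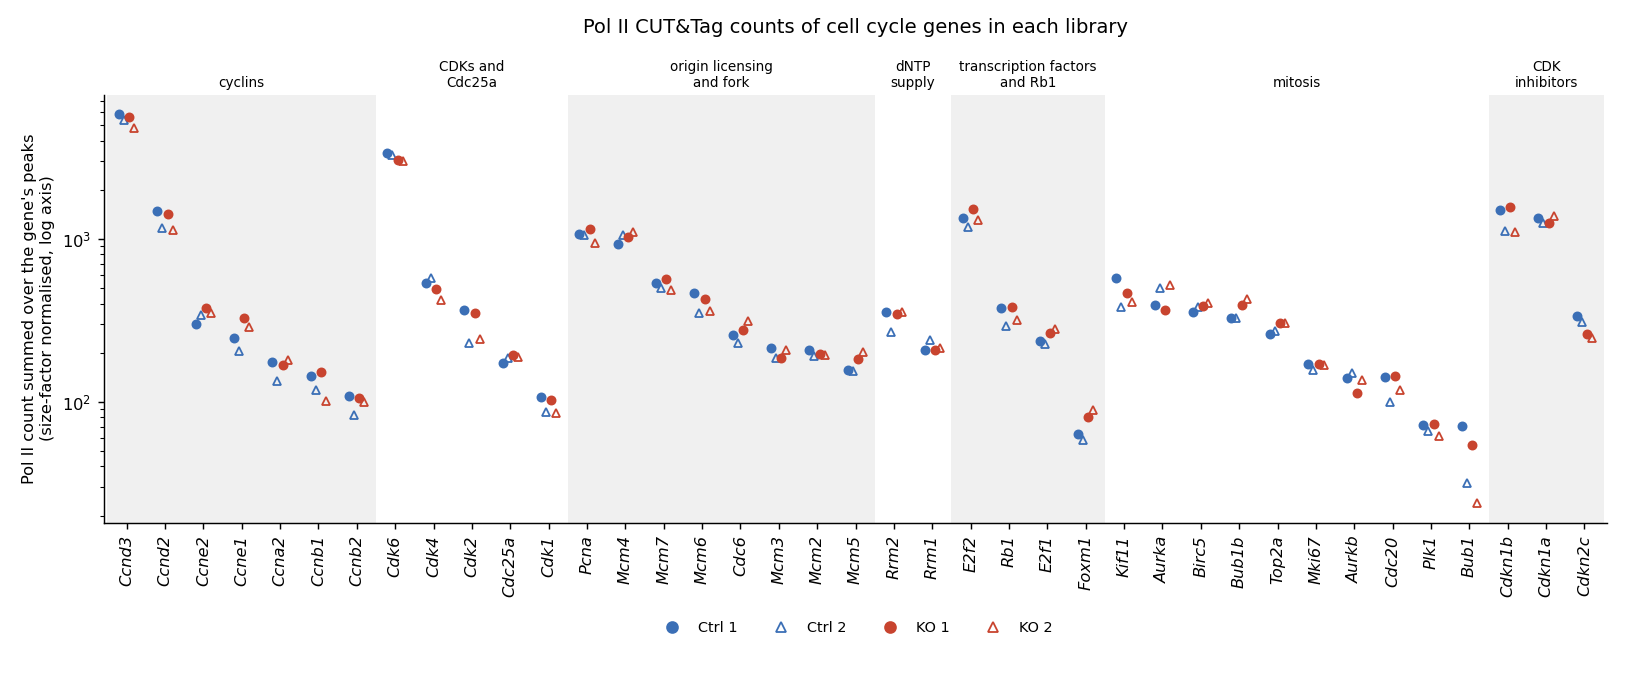
Pol II count summed over the peaks of each of the 39 genes, normalised by size factors (log axis), grouped by role and ordered by mean within a role. Circles are replicate 1 and triangles replicate 2 of Ctrl (blue) and KO (red). Levels run from Bub1 (mean 45.0) to Ccnd3 (mean 5390), and for most genes the 4 points lie close together. Sums of different genes depend on the length of their peaks.

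Promoter and gene body Pol II were tested apart. Over promoter peaks alone 0 of the 39 genes passed, against 5 of 11951 (0.0418%), and 0 had an unadjusted p below 0.05 against 1.91%. Over the remaining peaks 0 of 16 passed, against 4 of 5770 (0.0693%), and 1 had an unadjusted p below 0.05 (6.25%, against 3.36%). This was Top2a (chr11:98992943-99024189, minus strand), whose 2 peaks inside the gene summed to 56.1 and 63.4 counts in Ctrl, compared with 105 and 93.7 in KO (log2 fold change 0.74 ± 0.38) with an adjusted p of 0.997. Its promoter peak had 206, 209, 200.2 and 211 counts in the same order of libraries, a log2 fold change of -0.02. E2f2 came next, with 568 and 492 in Ctrl, against 703 and 637 in KO over its body peaks (0.34 ± 0.18). The body estimate exceeded the promoter estimate in 9 of 16 genes (56.2%), against 54.6% of all genes with both.

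At the level of single peaks 0 of the 165 passed the test, and 0 of all 56615 peaks (0.0%) did, the lowest adjusted p of any peak being 0.248. At an unadjusted p below 0.05 there were 3 peaks higher in KO (1.82%, against 0.862% of all peaks) and 0 lower (against 0.664%). They were the Ccne1 exon peak given above (2.40 ± 0.74), an intronic peak of Bub1b at chr2:118618597-118618905 (1.39 ± 0.63) and an exonic peak of Top2a at chr11:99017781-99018250 (1.17 ± 0.53). All 3 were low. The Bub1b peak had 26.6 and 9.65 counts in Ctrl, compared with 34.5 and 66.4 in KO, and the Top2a peak 23.0 and 23.4 in Ctrl, against 42.8 and 63.0 in KO. Of the peaks estimated lower, the first by p was the Cdkn2c peak over an exon near its start, chr4:109666825-109667340, with 146 and 149 in Ctrl, compared with 100.4 and 111 in KO (-0.49 ± 0.31).

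Further genes of the cycle were read from the same test. Of 32 further G1/S and replication genes 28 had a peak, of 34 further G2/M and spindle genes 29, and of 29 further control genes 28, and 0 of these passed in either direction, where 0.101% of all genes did. Their median log2 fold changes were -0.05, -0.02 and 0.01. At an unadjusted p below 0.05 there were 2 genes of 85 (2.35%), near the 2.62% of all genes. The first was Rpa2 in the G1/S list, a subunit of the protein that coats single-stranded DNA, with 487 and 413 in Ctrl, against 693 and 598 in KO (0.52 ± 0.19). The other was E2f4 in the control list, a repressive E2F, with 206 and 196 in Ctrl, compared with 267 and 298 in KO (0.49 ± 0.23). Both had an adjusted p of 1.00. The lowest p among genes estimated lower belonged to Pole (-0.30 ± 0.24), the leading strand polymerase, to Nuf2 (-0.72 ± 0.44), a kinetochore protein, and to Lin52 (-0.36 ± 0.20), a subunit of the DREAM complex. Prc1, a bundler of spindle microtubules, had the lowest p of the G2/M genes estimated higher (0.23 ± 0.18).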

How the data were processed

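Pol II CUT&Tag counts of 2 Ctrl and 2 KO libraries were analysed; 1 IgG library was not analysed here. The authors trimmed reads, mapped them to mm10 with Bowtie2, kept unique reads, removed duplicates, called MACS2 peaks against IgG and merged them with bedtools; versions are not given in the sources used here. The deposited values are raw counts per merged peak. Peaks were called on the libraries compared, so a region below the peak threshold in every library has no value. Peaks were assigned with GENCODE vM21 (GRCm38) to protein-coding genes, else to long non-coding genes. KO and Ctrl were compared with the DESeq2 1.42.0 Wald test (R 4.3.3), as in the study, on gene sums, promoter sums, body sums and peaks, with median-of-ratios size factors from the peaks (1.39, 0.726, 1.68 and 0.587 for Ctrl 1, Ctrl 2, KO 1 and KO 2), genotype only, two-sided, with Benjamini-Hochberg adjustment at 0.05. "Normalised" counts are divided by these factors. Fits were also run on simulated data with planted changes larger than any gene-sum estimate of the list. That run therefore does not show the power for changes as small as those estimated here. edgeR 4.0.16 was an alternative.

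The genes and lists were chosen with earlier results of these data known. By rule, values in every library were given for the 5 genes of lowest p in each direction, Mki67, Top2a and the 2 most abundant genes per role. Peaks were chosen by the 5 lowest p in each direction, summarised. The library values of Ccne2 and E2f1 and the promoter densities of Bub1 were given beyond this rule. So were the library values of the main Ccne1 peak and of the Cdk6 peak at 96.3 kb. Depth limits the libraries numbered 2 most. No 2 libraries had equal counts in more than 1.92% of peaks. Some markers of other cell types are not reported here.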

Additional observations from a re-analysis of the deposited data

How the results depend on the processing

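No gene or peak of the list passed the adjusted threshold with edgeR and TMM, total-count scaling, a mean of at least 10 counts (which removed 0 genes and 4 peaks), the replicate block, or any 1 library left out. No gene sum passed over promoter peaks only, peaks of a single gene only or a window of 1 kb upstream, which were run on gene sums alone. Genes at an unadjusted p below 0.05 numbered 3 with edgeR and 1 (Ccne1) with total-count scaling, against 0. With the replicate block 0 genes passed, the median log2 fold change was 0.026, and DESeq2 gave no adjusted p for 31 of the 39; 121 genes of all passed, against 13. The deviations of same-numbered libraries correlated at r = 0.233 across peaks. The methods speak of littermates, but no source says that a number marks a shared litter or day, and the fit without the block was kept as the main one. The median promoter density of 158 counts per kb became 200.5 with the densest promoter peak of each gene, a measure chosen after seeing the data.

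The median log2 fold change of the 39 genes was 0.03 and ranged from -0.040 to 0.13 over the fits without 1 library (-0.03 without Ctrl 2, -0.040 without KO 1, 0.13 without Ctrl 1, 0.11 without KO 2), so its sign depended on single libraries. The 3 peaks at an unadjusted p below 0.05 became 1 without Ctrl 2 and 0 without KO 2, with a range of 0 to 2. The 23 genes given in full by the rule, which leaves out Ccne2 and E2f1, were refitted. Of 159 estimates for them, 4 changed sign with another tool, scaling or set of peaks. These were Aurka with total-count scaling (0.011), Pcna with edgeR (0.0026) and total-count scaling (0.010), and Top2a over promoter peaks only (-0.015). Of 92 estimates without 1 library 15 changed sign, in 10 genes. Their ranges were Aurka (-0.28 to 0.23), Ccnd2 (-0.23 to 0.14), Cdkn1a (-0.050 to 0.10), Cdkn1b (-0.26 to 0.26), Kif11 (-0.39 to 0.21), Mki67 (-0.00012 to 0.12), Pcna (-0.16 to 0.11), Rb1 (-0.096 to 0.26), Rrm1 (-0.20 to 0.0060) and Rrm2 (-0.018 to 0.39). The cause was not tested. At 2 libraries a group, genes with few counts such as Bub1 and Foxm1 allow changes beyond 2-fold in their intervals.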
